A study of Mus musculus with 9 samples.

Results

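The ABC, MATE and OATP drug transporters of the proximal tubule were examined as a set of 10 genes, taken by symbol from the deposited table: Abcb1a, Abcb1b, Abcc2, Abcc3, Abcc4, Abcg2, Slc47a1, Slco1a6, Slco4c1 and Slco3a1. All 10 were among the 24421 genes listed, and 9 of them passed the filter on low values that left 15583 genes for testing. Slco4c1 did not pass it. Of the 9 tested genes, Abcc4 was higher in *db/db* mice than in *db/m* controls by 2.44-fold, and in *db/db* mice given dapagliflozin by 2.38-fold. By edgeR's quasi-likelihood test on all mice, 0 of the 9 were called between *db/db* mice with and without the drug. Abcc2 was called there by limma with a weight per mouse, and Slco3a1 by edgeR without *db/db* replicate 3. The weighted fit gave that same mouse the lowest weight, 0.275, so both calls came from fits that discounted or dropped it.

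Proximal tubular cells clear drugs, metabolites and endogenous organic ions from blood to urine by taking them up across the basolateral membrane and pumping them out across the brush border. ABC proteins are pumps driven by ATP: P-glycoprotein (Abcb1a and Abcb1b in the mouse), Mrp2 (Abcc2), Mrp4 (Abcc4) and Bcrp (Abcg2) lie on the luminal side, whereas Mrp3 (Abcc3) is a basolateral pump. MATE1 (Slc47a1) exchanges protons for organic cations such as metformin at the brush border, and OATPs (the Slco genes) carry large organic anions, bile acids, steroid conjugates and prostaglandins.

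Poly(A) RNA was sequenced from FACS-sorted tdTomato+ cells of the kidney cortex in 9 mice, 3 in each group. The question was how dapagliflozin, an inhibitor of the glucose transporter SGLT2, acts on proximal tubular transcripts in diabetic mice. The *db/m* mice are heterozygous for the leptin receptor mutation Lepr db and are not diabetic, the *db/db* mice are homozygous and diabetic, and the *db/db*-dapa mice are *db/db* mice that drank dapagliflozin at 1.5 mg/kg each day for 8 weeks and are called treated *db/db* mice where groups are compared. All 9 mice carried the tamoxifen-inducible Cre cassette in the Slc34a1 locus and the R26tdTomato reporter on a strain labelled C57BL/6, and all received 5 injections of 3 mg tamoxifen from 8 weeks of age. The reporter therefore marks cells in which Slc34a1, a phosphate transporter of the proximal tubule, was active at the time of tamoxifen. The sample labels name only kidney as the tissue, and the sort is known from the study's methods.

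Levels are given as CPM, the count of a gene scaled to the size of its library, after TMM scaling. Library totals ranged from 2733349 to 9033123 estimated counts, the smallest being *db/db* replicate 1, and Pearson's r between mice of a group was 0.955 to 0.992 over the genes tested. The 14 proximal tubule markers were detected in every mouse and summed to 24895 to 27195 CPM in *db/m*, 25346 to 33796 in *db/db* and 30270 to 39207 in *db/db*-dapa mice. Transcripts of other cell types were also detected: 12 endothelial markers summed to 73.9 to 355 CPM, 8 macrophage markers to 31.4 to 118 CPM and 9 lymphocyte markers to 0.379 to 5.35 CPM over the 9 mice, while 5 markers of the thick ascending limb summed to 597 to 2099 CPM. None of the genes on these 4 lists, nor on those for the proximal tubule, its S1 and S2 segments, podocytes, distal convoluted tubule, principal and intercalated cells, stroma and red cells, was called by edgeR in a comparison. In treated *db/db* against *db/m* mice, 6 of 7 principal cell markers and 6 of 14 proximal tubule markers were under an unadjusted p of 0.05, beside 18.2% of all genes. There all 7 principal cell, all 5 intercalated cell and all 5 thick ascending limb markers were lower, while 12 proximal tubule markers were higher and 2 lower. In *db/db* against *db/m* mice, 5 of 6 markers of the S1 and S2 segments were under it, beside 13.7% of all genes, and all 6 were higher. Of 9 immediate-early and heat-shock genes 1, Dnajb1, was called, lower in *db/db* than in *db/m* mice. *db/db* replicate 3 stood apart from the other *db/db* mice in several results below, which are therefore given with and without it. It was singled out from these same values, so calls made without it describe how the results depend on that mouse. Since these are bulk libraries, fewer cells of a type and less RNA per cell cannot be told apart.

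Scaled for the length of the longest transcript, Slc47a1 was the most abundant of the 10 genes, at 302 ± 22.5 CPM per kilobase (SD over the 9 mice). Abcg2 followed at 88.4 ± 15.4 CPM per kilobase and Slco1a6 at 84.6 ± 20.7, a pair whose spreads overlapped. Abcc2 was at 57.1 ± 34.1 and Slco3a1 at 33.8 ± 12.3 CPM per kilobase, and these also overlapped. Slc47a1 in its lowest mouse was above Abcg2 in its highest, while every other neighbouring pair down to Abcb1a shared part of its range. Abcc4 was at 12.3 ± 5.07 CPM per kilobase, above Abcb1b at 1.97 ± 1.30 and Abcb1a at 1.54 ± 1.24. Abcc3, at 0.159 ± 0.117 CPM per kilobase, and Slco4c1, at 0.0160, were close to the limit of detection.

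**Figure D1:**
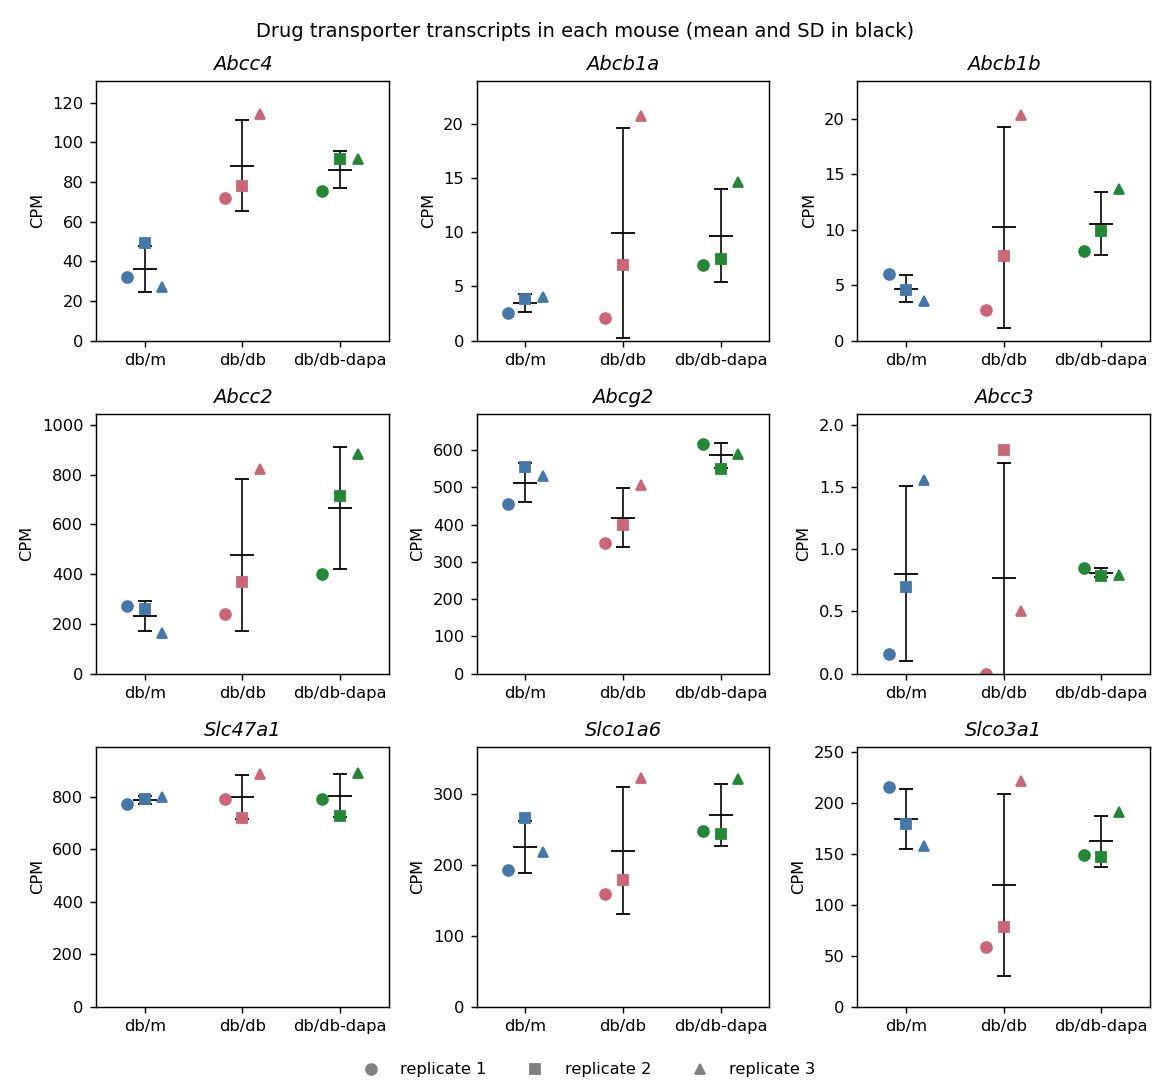
Level of the 9 tested transporters in CPM (vertical axes, each from 0) in the 9 mice by group (points shaped by replicate), with the mean and SD in black. Abcc4 lies between 26.9 and 49.4 CPM in *db/m* mice and between 72.1 and 115 CPM in the other 6 mice, and *db/db* replicate 3 is the highest *db/db* mouse for every gene shown but Abcc3.

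Among the luminal ABC pumps, Abcc4 showed the clearest difference between the groups. Abcc4 (GRCm38, chr14:118482692-118706219, minus strand) encodes Mrp4, which exports cyclic nucleotides, urate, prostaglandins and many anionic drugs and their conjugates. In *db/m* mice it was at 32.3, 49.4 and 26.9 CPM, in *db/db* mice at 72.1, 78.0 and 115 CPM, and in *db/db*-dapa mice at 75.5, 91.6 and 91.6 CPM. All 6 diabetic mice were above all 3 *db/m* mice. The group means were 36.2 ± 11.7 in *db/m*, 88.2 ± 23.0 in *db/db* and 86.3 ± 9.30 CPM in treated *db/db* mice (SD, n = 3 each). Abcc4 rose in *db/db* against *db/m* mice by a log2 fold change of 1.29 (standard error 0.25, edgeR's quasi-likelihood test, Benjamini-Hochberg adjusted p = 0.0412), and in treated *db/db* against *db/m* mice by a log2 fold change of 1.25 (standard error 0.25, edgeR adjusted p = 0.0621). The threshold for a call was an adjusted p under 0.1 together with more than a 2-fold change, and Abcc4 was the 1 of the 9 tested transporters called in each of these comparisons. Of all genes tested, edgeR called 1.26% between *db/db* and *db/m* mice and 1.05% between treated *db/db* and *db/m* mice, and 0% between treated and untreated *db/db* mice, where DESeq2 called 13 genes and limma with a weight per mouse 449. Both comparisons use the same *db/m* mice.

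Treated and untreated *db/db* mice did not differ in Abcc4 beyond their spread. The log2 fold change was -0.04 (standard error 0.24, 95% interval -0.57 to 0.50, edgeR adjusted p = 0.982), so a change of 2-fold in either direction lies outside the interval. With 3 mice against 3, the exact two-sided permutation test of a single gene cannot give a p under 0.1, the value it gave for Abcc4 against *db/m* mice in both groups.

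The call of Abcc4 depended on which mice were included. Between *db/db* and *db/m* mice it was lost without *db/m* replicate 1 (log2 fold change 1.21, edgeR adjusted p = 0.208) and without *db/m* replicate 3 (1.11, adjusted p = 0.143), and narrowly when the *db/db*-dapa mice were left out of the fit (1.28, adjusted p = 0.105). Between treated *db/db* and *db/m* mice it was lost without *db/m* replicate 1 (1.17, adjusted p = 0.265), *db/m* replicate 3 (1.08, adjusted p = 0.235), *db/db*-dapa replicate 2 (1.21, adjusted p = 0.336) and *db/db*-dapa replicate 3 (1.22, adjusted p = 0.230). Without *db/db* replicate 3 it was called in both comparisons. The fold change itself stayed above 2-fold in every one of these fits.

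Because Abcc4 was the transporter called, the 250 bases of RefSeq sequence (GRCm38.p6) just before its start site, chr14:118706220-118706469 on the minus strand, are shown with the 1 match to the antioxidant response core TGACNNNGC in capitals, read here on the opposite strand and beginning 25 bases before the start. The core is the sequence bound by Nrf2, a transcription factor that responds to oxidative stress.
Abcc4 upstream: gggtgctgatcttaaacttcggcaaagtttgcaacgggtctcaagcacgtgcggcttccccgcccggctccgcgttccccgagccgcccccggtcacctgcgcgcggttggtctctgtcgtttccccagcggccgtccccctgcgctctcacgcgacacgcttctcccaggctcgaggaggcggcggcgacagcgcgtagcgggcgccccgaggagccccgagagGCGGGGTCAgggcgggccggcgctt
RefSeq gave 10 windows for 7 of the 10 transporters, since some genes had more than 1. The core was on either strand in 4 of the 10 windows, those of Abcc2 and Slco4c1 and both of Abcc4. The other Abcc4 window is chr14:118676932-118677181. Of 32851 promoters of the same length, 10.2% hold it. The letters AGGTCA, a nuclear receptor element, were in 3 of the 10 windows (Abcg2 and Abcc2) and in 14.0% of all promoters. AGTTCA was in 2 windows (Abcb1a and Slco1a6) and in 11.8% of all promoters. The Abcb1a window, chr5:8566841-8567090, lies upstream of the gene coordinates given below. GTTAAT, an HNF1 element, was in none of these windows and in 6.43% of all promoters. Both strands were searched, and no 2 matches overlapped. These matches describe letters in the windows and say nothing of binding.

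Abcc2 (chr19:43782192-43840740, plus strand) encodes Mrp2, which excretes glutathione and glucuronide conjugates. It was at 273, 260 and 163 CPM in *db/m* mice, at 241, 368 and 823 CPM in *db/db* mice and at 401, 713 and 885 CPM in *db/db*-dapa mice. All *db/db*-dapa mice were above all *db/m* mice, whereas *db/db* mice ranged from within the *db/m* values to near the top of the *db/db*-dapa values. The means were 232 ± 60.2, 477 ± 306 and 666 ± 245 CPM (SD, n = 3 each). The log2 fold change against *db/m* mice was 1.04 (standard error 0.42, edgeR adjusted p = 0.306) in *db/db* and 1.52 (standard error 0.43, edgeR adjusted p = 0.143) in *db/db*-dapa mice, and neither was called. The second of these passed the threshold in 7 of 20 alternative analyses, among them DESeq2 (1.51, adjusted p = 0.0162), the fit of the 2 groups alone (adjusted p = 0.0266) and the fit without *db/db* replicate 3 (1.53, adjusted p = 0.0231). Without the same mouse, the difference of *db/db* from *db/m* mice was 0.39 on the log2 scale, and with another mouse left out it reached 1.36. The log2 fold change of treated against untreated *db/db* mice was 0.48 (standard error 0.42, edgeR adjusted p = 0.854), and 1.14 without *db/db* replicate 3 (adjusted p = 0.117).

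Abcb1a (chr5:8660077-8748575, plus strand) and Abcb1b (chr5:8798147-8866315, plus strand) lie side by side and encode the P-glycoproteins, pumps for hydrophobic and cationic drugs such as digoxin and cyclosporin. Their counts can mix, since the coding sequences, 3828 bases each, were 87.7% identical, and 7.58% of the 101-base windows of Abcb1a and 8.58% of those of Abcb1b occurred in another gene, nearly all in each other. The longest stretch without a mismatch was 338 bases, spanning exons 13 and 14 of 28 in both genes. Other 101-base windows differ between the copies by at least 1 base. The 90 bases of exon 16 in which they differ most show this, with the 29 mismatches in capitals, at chr5:8714896-8714985 in Abcb1a and chr5:8827335-8827424 in Abcb1b (GRCm38, plus strand).
Abcb1a exon 16: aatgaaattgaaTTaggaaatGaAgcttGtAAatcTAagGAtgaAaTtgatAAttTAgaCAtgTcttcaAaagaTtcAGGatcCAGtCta
Abcb1b exon 16: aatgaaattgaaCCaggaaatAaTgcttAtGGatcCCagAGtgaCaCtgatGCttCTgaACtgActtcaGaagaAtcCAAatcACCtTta
In the deposited table each of the 2 genes had values that were not whole numbers in 3 of the 9 mice, so the split of counts between the copies is uncertain.

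Abcb1a was at 2.52, 3.84 and 4.0 CPM in *db/m* mice, at 2.04, 7.0 and 20.7 CPM in *db/db* mice and at 6.96, 7.48 and 14.6 CPM in *db/db*-dapa mice. Abcb1b was at 5.98, 4.54 and 3.56 CPM in *db/m* mice, at 2.72, 7.60 and 20.3 CPM in *db/db* mice and at 8.09, 9.85 and 13.7 CPM in *db/db*-dapa mice. For both genes *db/db* replicate 1 was the lowest and *db/db* replicate 3 the highest of all 9 mice, and all *db/db*-dapa mice were above all *db/m* mice. The log2 fold change of Abcb1a was 1.60 (standard error 0.63, edgeR adjusted p = 0.295) in *db/db* and 1.5 (standard error 0.63, edgeR adjusted p = 0.254) in treated *db/db* against *db/m* mice. That of Abcb1b was 1.17 (standard error 0.55, edgeR adjusted p = 0.376) and 1.16 (standard error 0.54, edgeR adjusted p = 0.283) in the same comparisons. None of these passed the threshold. Without *db/db* replicate 3, the difference of *db/db* from *db/m* mice was 0.47 for Abcb1a and 0.18 for Abcb1b on the log2 scale, and both genes were called in treated *db/db* against *db/m* mice, with edgeR adjusted p = 0.0760 and 0.0948. With another mouse left out, the difference of *db/db* from *db/m* mice reached 2.03 for Abcb1a and 1.57 for Abcb1b.

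Summed over the pair, P-glycoprotein transcripts were at 8.50, 8.55 and 7.55 CPM in *db/m* mice, at 4.42, 14.6 and 41.1 CPM in *db/db* mice and at 15.0, 17.3 and 28.3 CPM in *db/db*-dapa mice. The sum is not affected by how reads were divided between the copies, and it was lowest and highest in the same mice. Its log2 fold change against *db/m* mice was 1.34 in *db/db* (edgeR adjusted p = 0.323) and 1.30 in *db/db*-dapa mice (edgeR adjusted p = 0.260). Between treated and untreated *db/db* mice it was -0.04 (95% interval -1.21 to 1.13, edgeR adjusted p = 0.994). P-glycoprotein is also made in capillary endothelium. The 12 endothelial markers summed to 113 CPM in *db/db* replicate 3, the mouse highest for both genes, against 289 and 341 CPM in the other *db/db* mice. They summed to 100.3 to 247 CPM in *db/m* and 73.9 to 355 CPM in *db/db*-dapa mice, and the part of endothelial RNA in these values was not tested.

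Abcg2 (chr6:58584523-58695676, plus strand) encodes Bcrp, which secretes urate, sulfate conjugates and many drugs. It was at 454, 553 and 529 CPM in *db/m* mice, at 351, 399 and 505 CPM in *db/db* mice and at 617, 550 and 589 CPM in *db/db*-dapa mice. All *db/db*-dapa mice were above all *db/db* mice. The means were 512 ± 51.7, 418 ± 78.9 and 586 ± 33.5 CPM (SD, n = 3 each). The log2 fold change of treated against untreated *db/db* mice was 0.48 (standard error 0.18, 95% interval 0.09 to 0.88), with an unadjusted p = 0.0205 and an adjusted p = 0.854 in edgeR's quasi-likelihood test, so it was not called. This was the 1 of the 9 tested transporters under an unadjusted p of 0.05 in that comparison, where 5.19% of all genes were under it. It was also the 1 tested transporter with all treated above all untreated mice, which held for 4.9% of all genes. The sign was the same in all 20 alternatives, with log2 fold changes from 0.37 to 0.66. Since these groups did not overlap, leaving out 1 mouse could hardly change the sign. Against *db/m* mice, the log2 fold change of Abcg2 was -0.29 (standard error 0.18, edgeR adjusted p = 0.513) in *db/db* and 0.19 (standard error 0.18, edgeR adjusted p = 0.565) in *db/db*-dapa mice.

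Abcc3 (chr11:94343295-94392997, minus strand), the basolateral pump, was at 1, 4 and 7 counts in *db/m* mice, 0, 9 and 4 counts in *db/db* mice and 6, 6 and 7 counts in *db/db*-dapa mice. At most this was 1.80 CPM, and the 3 groups overlapped. The 95% interval of its fold between *db/db* and *db/m* mice ran from 0.259 to 4.36. With counts this low and their spread between mice, the fold is left undecided within that range.

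**Figure D2:**
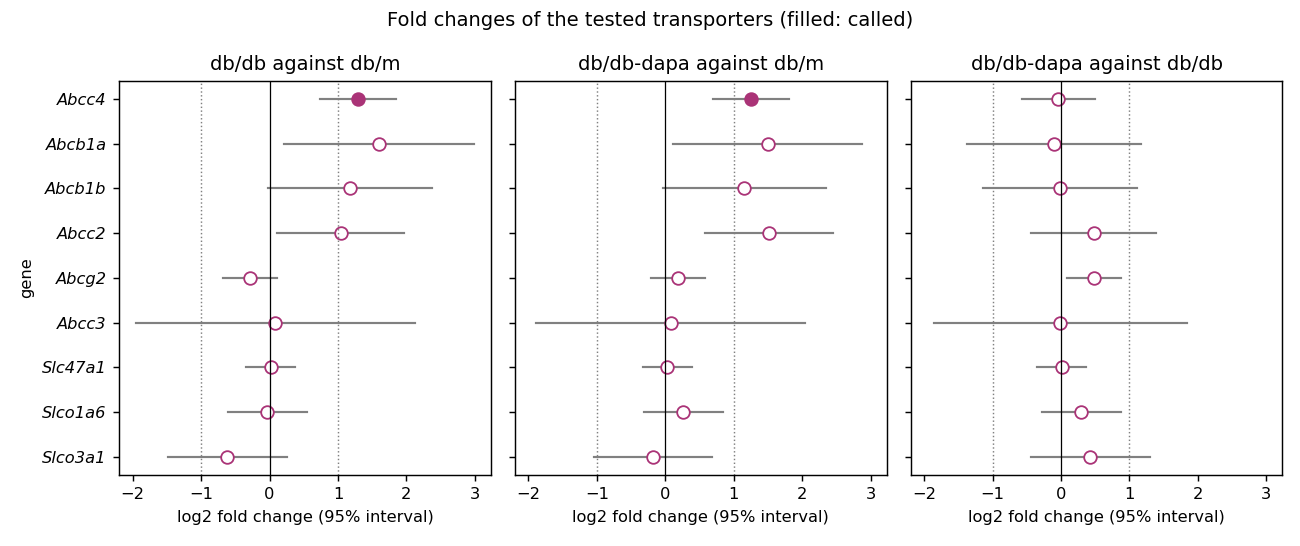
Log2 fold changes of the 9 tested transporters (horizontal axis) with their 95% intervals as bars, in *db/db* against *db/m*, treated *db/db* against *db/m* and treated against untreated *db/db* mice, with filled points for genes called and dotted lines at a 2-fold change. Abcc4 is filled at 1.29 and 1.25 in the comparisons with *db/m* mice, and no point is filled in the third panel.

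Slc47a1 (chr11:61343401-61378345, minus strand) encodes the proton-coupled exchanger MATE1, through which organic cations leave the cell into the urine. Its level was nearly the same in all mice, at 773, 791 and 801 CPM in *db/m* mice, 790, 719 and 886 CPM in *db/db* mice and 792, 728 and 891 CPM in *db/db*-dapa mice. The groups overlapped, and the log2 fold change between *db/db* and *db/m* mice was 0.02 (standard error 0.16, edgeR adjusted p = 0.974). Between treated and untreated *db/db* mice it was 0.01 (standard error 0.16), with a 95% interval from -0.35 to 0.37, or from 0.786-fold to 1.29-fold. Of its 9 deposited values 4 were not whole, although no 101-base window of it occurred in another gene. No direction can be given to differences this small, and the sign of those of treated mice changed with the scaling.

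Among the OATP carriers, Slco3a1 (chr7:74275419-74554780, minus strand), a widely expressed carrier of prostaglandins and thyroid hormone, differed widely between *db/db* mice. It was at 215, 179 and 158 CPM in *db/m* mice, at 58.8, 77.8 and 222 CPM in *db/db* mice and at 149, 147 and 191 CPM in *db/db*-dapa mice. In the *db/db* group, replicates 1 and 2 were below all other mice and replicate 3 was above all other mice. The fitted difference on the log2 scale was -0.61 (standard error 0.40, edgeR adjusted p = 0.535) in *db/db* against *db/m* mice and 0.43 (standard error 0.39, edgeR adjusted p = 0.856) in treated against untreated *db/db* mice, and neither was called. Without *db/db* replicate 3 both were called, at -1.43 (edgeR adjusted p = 0.00713) and 1.26 (edgeR adjusted p = 0.0606). Leaving out the mouse that stood apart narrows the spread by itself and leaves 2 *db/db* mice, so these calls only describe the dependence on it. Treated *db/db* and *db/m* mice overlapped, and their log2 fold change was -0.18 (standard error 0.39, edgeR adjusted p = 0.822).

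Markers of the S3 segment, the straight end of the proximal tubule, differed between the same mice. Summed over 9 markers, they were at 370, 925 and 2062 CPM in *db/db* replicates 1, 2 and 3, at 2608 to 2848 CPM in *db/m* mice and at 1581 to 2404 CPM in *db/db*-dapa mice. No marker of the list was at 0 in all mice of a group. Of the 9 markers, 6 had a lower and 3 a higher fitted level in *db/db* than in *db/m* mice, and 1, Acsm3, was called, lower. *db/db* replicate 3 was the highest mouse for Slco3a1 and was below all *db/m* mice in the summed S3 markers. The 6 markers of the S1 and S2 segments summed to 1920 to 2734 CPM in *db/m*, 2916 to 4953 in *db/db* and 3124 to 3639 in *db/db*-dapa mice, so that the groups in which Abcc4 was higher were also higher in these markers and lower in the S3 markers. The part of segment composition in the values of Slco3a1 and Abcc4 was not tested.

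**Figure D3:**
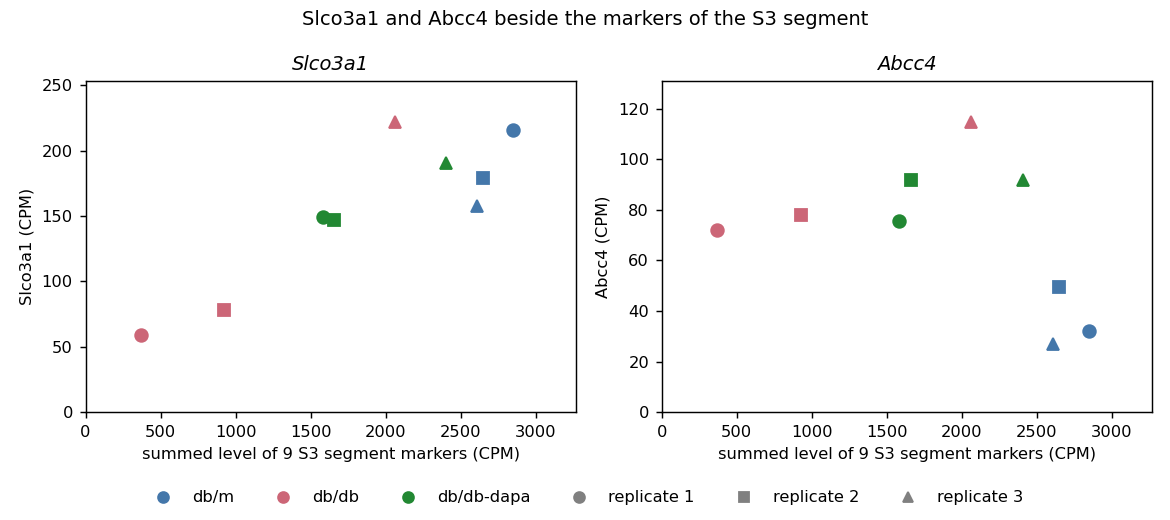
Level of Slco3a1 (left) and Abcc4 (right) in CPM against the summed CPM of the 9 S3 segment markers, with 1 point for each mouse, coloured by group and shaped by replicate. *db/db* replicates 1 and 2, at 370 and 925 CPM of S3 markers, are the 2 mice lowest for Slco3a1. For Abcc4 all 6 diabetic mice lie above the 3 *db/m* mice, and all 6 also lie below them in the S3 markers.

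Slco1a6 (chr6:142085761-142208521, minus strand), a carrier of the rodent Oatp1a family, was at 193, 265 and 217 CPM in *db/m* mice, at 158, 178 and 323 CPM in *db/db* mice and at 247, 243 and 320 CPM in *db/db*-dapa mice. The 3 groups overlapped. Its log2 fold change was -0.03 (standard error 0.26, edgeR adjusted p = 0.973) in *db/db* and 0.26 (standard error 0.26, edgeR adjusted p = 0.594) in treated *db/db* against *db/m* mice, and 0.29 (standard error 0.26, edgeR adjusted p = 0.855) between treated and untreated *db/db* mice. With 1 mouse left out, the last of these ranged from 0.11 to 0.70, the highest being without *db/db* replicate 3 (edgeR adjusted p = 0.116), where *db/db* against *db/m* mice gave -0.43. Of its 101-base windows, 2.1% occurred in the neighbouring gene Gm6614, and 7 of its 9 deposited values were not whole, so part of its count is uncertain.

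Slco4c1 (chr1:96816270-96872171, minus strand), a carrier of digoxin and thyroid hormone, was at 0 counts in 7 of the 9 mice and at 1 and 4 counts in *db/db* replicates 2 and 3. A count of 0 allows a level of up to 3 counts, which is 0.339 CPM in the largest and 1.02 CPM in the smallest library. The gene was therefore not tested, and no fold is given.

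Over the 9 tested transporters, the median log2 fold change was 0.09 in *db/db* against *db/m* mice and 0.26 in treated *db/db* against *db/m* mice, beside 0.02 and -0.02 over all genes. Between treated and untreated *db/db* mice it was 0.01, beside -0.01 over all genes. The 5 luminal ABC pumps, which include the Abcb1 pair whose counts can mix, had medians of 1.17, 1.25 and -0.02 in the 3 comparisons. The first is the value of Abcb1b, which was 0.18 without *db/db* replicate 3. Without that mouse Abcb1a was at 0.47 and Abcc2 at 0.39, while Abcc4 was still called. With another mouse left out, Abcb1b, Abcb1a and Abcc2 reached 1.57, 2.03 and 1.36. The groups did not overlap for 1 transporter, Abcc4, in *db/db* relative to *db/m* mice and for 4, Abcc4, Abcb1a, Abcb1b and Abcc2, in treated *db/db* against *db/m* mice, all of them higher than in *db/m* mice, as were 8.28% and 14.4% of all genes. Of the 9 genes, 3 in each of these comparisons were under an unadjusted p of 0.05, beside 13.7% and 18.2% of all genes. For 5 of the 9 transporters *db/db* replicate 3 was the highest of all mice, beside 14.4% of all genes, and for 6 of them *db/db* replicate 1 was the lowest, beside 14.8% of all genes.

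**Figure D4:**
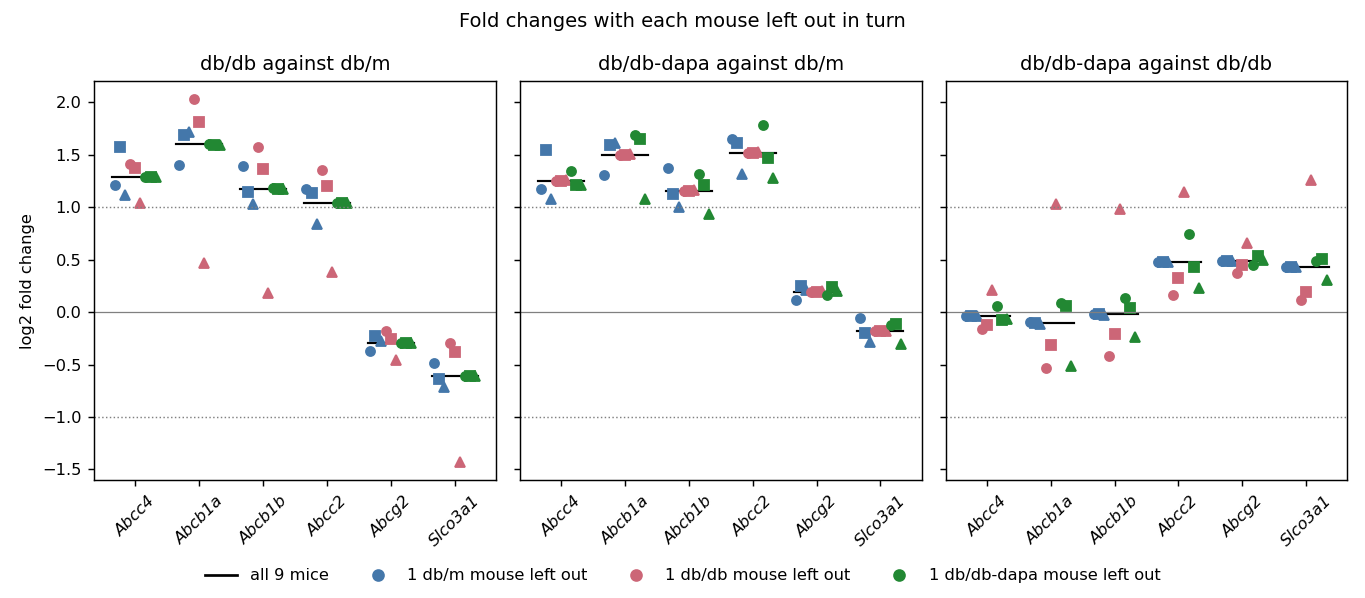
Log2 fold changes of 6 transporters (vertical axis) with all 9 mice (black lines) and with each mouse left out in turn (points coloured by the group of the mouse left out, with circles for replicate 1, squares for replicate 2 and triangles for replicate 3). Abcc4 stays above 1 in both comparisons with *db/m* mice, from 1.04 to 1.58 and from 1.08 to 1.54, while leaving out *db/db* replicate 3 lowers Abcb1a to 0.47, Abcb1b to 0.18 and Abcc2 to 0.39 in the first panel. With another mouse left out these 3 genes reach 2.03, 1.57 and 1.36 there.

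Other genes of the same families were tested in the same fits. Of 47 other ABC genes, 39 were tested. Between *db/db* and *db/m* mice edgeR called 0 of them, with 11 under an unadjusted p of 0.05, beside 13.7% of all genes. Between treated and untreated *db/db* mice it called 0, with 2 under it, beside 5.19% of all genes. Between treated *db/db* and *db/m* mice 7 were under it, beside 18.2% of all genes, and 1 was called, beside 1.05%. This was Abca1, which exports cholesterol and phospholipid. It was at 13.2, 25.1 and 16.7 CPM in *db/m*, 26.2, 30.4 and 60.0 CPM in *db/db* and 37.6, 57.2 and 70.6 CPM in *db/db*-dapa mice, and rose by a log2 fold change of 1.59 in treated *db/db* against *db/m* mice (edgeR adjusted p = 0.0865). The median over the 39 genes was 0.29, 0.15 and 0.00 in the 3 comparisons. Abcc6, singled out after its values were seen, was at 44.2 ± 5.01 CPM in *db/db* and 26.1 ± 2.42 CPM in *db/m* mice (SD, n = 3 each). Its log2 fold change of 0.76 passed the threshold on p (edgeR adjusted p = 0.0720) and not that on fold. In *db/db*-dapa mice Abcc6 was at 29.1 ± 3.25 CPM. Its log2 fold change of treated against untreated *db/db* mice was -0.61 (edgeR unadjusted p = 0.00379, adjusted p = 0.854), which was not called.

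Of 13 other OATP and MATE genes, 7 were tested. In *db/db* against *db/m* mice 1 of them was called, beside 1.26% of all genes. This was Slco1a1, which takes up steroid sulfates and other organic anions, and it was lower in *db/db* mice. It was at 450 ± 93.7 CPM in *db/m* and 5.69 ± 3.03 CPM in *db/db* mice (SD, n = 3 each), and fell by 6.24 on the log2 scale (edgeR adjusted p = 0.00461). It was at 93.0, 14.2 and 144 CPM in treated *db/db* mice. Its log2 fold change of treated against untreated *db/db* mice was 3.82 (95% interval 2.28 to 5.35, edgeR unadjusted p = 0.000179, adjusted p = 0.854). Against *db/m* mice it was -2.43 in treated *db/db* mice (edgeR adjusted p = 0.112). Slco1a6, which lies in the same gene cluster on chromosome 6, was not called, as given above. None of the 7 was called in treated *db/db* against *db/m* or against untreated *db/db* mice. There 3 and 1 were under an unadjusted p of 0.05, beside 18.2% and 5.19% of all genes.

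All 18 listed regulators of xenobiotic and tubular genes were tested, most of them transcription factors. The list also holds the receptors for growth hormone and prolactin and a protein that binds Nrf2. In each comparison with *db/m* mice 1 was called, beside 1.26% and 1.05% of all genes. Between treated and untreated *db/db* mice 0 were called, and 1 was under an unadjusted p of 0.05, beside 5.19% of all genes. The gene called was Nr1i2, which encodes PXR, a nuclear receptor that senses drugs and bile acids. PXR is known to act on P-glycoprotein and Mrp2 genes in liver. Nr1i2 was at 4.57, 7.33 and 8.44 CPM in *db/m*, 15.6, 16.8 and 14.4 CPM in *db/db* and 15.2, 20.0 and 16.0 CPM in *db/db*-dapa mice. All 6 diabetic mice were above all *db/m* mice, and it rose by a log2 fold change of 1.21 in *db/db* (edgeR adjusted p = 0.0656) and 1.34 in *db/db*-dapa mice (edgeR adjusted p = 0.0549). Of 7 scaffold proteins that hold transporters in the brush border, all tested, 0 were called by edgeR or under an unadjusted p of 0.05 in any comparison. Pdzk1, the scaffold gene with the smallest p between treated and untreated *db/db* mice, was at 1655 ± 75.6 and 1436 ± 106 CPM (SD, n = 3 each) there, a log2 fold change of 0.20 (edgeR adjusted p = 0.854).

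The genes whose levels over the 9 mice were most like those of Abcc4, by Pearson's r of log2(CPM + 1), were Pklr (r = 0.990), which encodes the pyruvate kinase of liver and red cells, Nup155 (r = 0.986), a nuclear pore protein, and Gldc (r = 0.983), a subunit of the glycine cleavage system. They were picked as the highest of all genes tested and share the libraries and their depth with Abcc4, so the values are a description.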

How the data were processed

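Sorted proximal tubular cells of 9 mice (3 in each of the groups *db/m*, *db/db* and, called treated *db/db* mice, *db/db*-dapa) were analysed by RNA sequencing, with groups and replicate numbers from the sample labels. The authors prepared stranded poly(A) libraries and sequenced 101-base single-end reads, and the submitters' processing notes name mm10, TopHat2 2.0.13, Bowtie2 2.2.3, SAMtools 0.1.19 and Cufflinks 2.2.1. The deposited values, 1 for each gene and mouse, are named FPKM but have the form of estimated counts: 85.9% of those above 0 are whole and their sums differ between mice. The counting method and its use of strand are not given in the sources used here. The table had 24421 genes, 6100 of them at 0 in all mice, and 0 unused sample columns.

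The values were rounded, scaled by TMM, filtered at 0.3 CPM in at least 2 of 9 mice, and fitted over all 9 mice without pairing in R 4.3.3 with edgeR 4.0.16, using the earlier form of its quasi-likelihood test, with Benjamini-Hochberg adjustment over 15583 genes. Standard errors were derived from the test's F value. Counting floors of 3 counts cover counting error only. Each library came from 1 mouse. The test was tried on simulated counts. Alternatives used DESeq2 1.42.0, limma 3.58.1, other scalings, filters and pseudocounts, a weight per mouse, a replicate block and each mouse left out. 2 alternatives, the newer form of the test and the Abcb1 pair summed, were chosen after seeing the data.

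Coordinates, transcript lengths and windows shared between genes came from GENCODE's annotation of GRCm38, the build that mm10 denotes, and upstream sequences from RefSeq. The 10 transporters and the lists of related genes, regulators and markers were chosen with earlier results of these data known. Named were all 10 transporters, the genes of the 4 related lists that were called, for a list with none called the gene with the smallest p between treated and untreated *db/db* mice, and the 3 genes most like each called transporter. Abcc6 falls outside this rule and was named after its values were seen, and Acsm3 and Dnajb1 are named as the genes called on 2 other lists.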

Additional observations from a re-analysis of the deposited data

How the results depend on the processing

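The direction against *db/m* mice was the same in all 20 alternatives (21 for Abcb1a and Abcb1b) for Abcc4, Abcc2, Abcb1a, Abcb1b, Abcg2 and Slco3a1. Where the groups did not overlap, as for Abcc4, leaving out 1 mouse could hardly change it. Log2 fold changes of Abcc4 ranged from 1.04 to 1.58 in *db/db* and from 1.08 to 1.54 in *db/db*-dapa mice. Replicate error limits most results: with 3 mice in a group 1 mouse could add or remove a call, and Abcc3 and Slco4c1 were also limited by their low counts. Of the recomputed fold changes, 477 kept their direction and their side of the threshold, 45 changed direction, 17 gained a call and 7 lost one, and the cause was not tested.

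Between *db/db* and *db/m* mice, 197 genes were called, with 363 by DESeq2, 115 from the 2 groups alone and 85 to 230 with 1 mouse left out. Of the transporters 1 was called, with 2 under a weight per mouse (Abcc4 and Slco3a1), 0 from the 2 groups alone and 0 to 2 with 1 mouse left out. Between treated *db/db* and *db/m* mice, 164 genes were called, with 275 without a filter, 507 by DESeq2, 1619 under a weight per mouse, 630 from the 2 groups alone and 14 to 664 with 1 mouse left out. The 1 transporter called became 2 without a filter and by DESeq2 (Abcc2 and Abcc4), 4 under a weight per mouse and from the 2 groups alone (Abcb1a, Abcb1b, Abcc2 and Abcc4), and 0 to 4 with 1 mouse left out. Between treated and untreated *db/db* mice, 0 genes were called by edgeR, with 809 under an unadjusted p of 0.05, 13 by DESeq2, 449 under a weight per mouse and 0 to 272 with 1 mouse left out. Of the transporters 0 were called, with 1 under a weight per mouse (Abcc2) and 0 to 1 with 1 mouse left out (Slco3a1 without *db/db* replicate 3). The weight per mouse was lowest for *db/db* replicate 3, at 0.275, and highest for *db/db*-dapa replicate 2, at 3.49. Scaling by total count moved the median of all genes to 0.13 in *db/db* against *db/m* mice and the calls from 86 higher and 111 lower to 141 and 93. The newer form of the test called 206, 187 and 0 genes and the same transporters.

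Directions that changed belonged to differences near 0 in the main fit, though some of the recomputed values below were far from 0. For *db/db* against *db/m* mice, Abcc3 was at -0.084 with limma and a pseudocount of 1, -0.52 with a pseudocount of 0.1, -0.049 with the replicate block and -1.16 to 0.92 with 1 mouse left out. Slc47a1 was at -0.029 under a weight per mouse and -0.071 to 0.089 with 1 mouse left out, and Slco1a6 at 0.071 by total count and -0.43 to 0.16 with 1 mouse left out. For treated *db/db* against *db/m* mice, Slc47a1 was at -0.027 by upper quartile, -0.022 under a weight per mouse and -0.041 to 0.099 with 1 mouse left out, and Abcc3 at -0.44 to 0.91 with 1 mouse left out. For treated against untreated *db/db* mice, with limma and pseudocounts of 1 and 0.1, Abcb1a was at 0.33 and 0.44, Abcb1b at 0.36 and 0.45 and Abcc3 at 0.16 and 0.90. Under a weight per mouse these 3 were at 0.57, 0.64 and 0.36 and Abcc4 at 0.17, by DESeq2 Abcb1b was at 0.011 and Abcc3 at 0.0065, and Slc47a1 was at -0.057 by upper quartile and by total count. With 1 mouse left out, Abcb1a ranged from -0.53 to 1.03, Abcb1b from -0.42 to 0.98, Abcc3 from -0.43 to 1.23, Abcc4 from -0.16 to 0.21 and Slc47a1 from -0.061 to 0.11.

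Whether the replicate numbers pair the mice cannot be decided here, since deviations from the mean of only 3 mice are tied to each other. Over 9 same-number pairs the correlation of deviations from the group means was -0.32 to 0.56 and over 0.1 in 3. The highest, 0.56 and 0.40, were between *db/db* and *db/db*-dapa mice, at replicates 3 and 1. Of the 9 mice, 4 correlated best with their own number. A fit with the replicate number as a block called 185, 166 and 0 genes in the 3 comparisons and 1, 1 and 0 transporters, and changed the call of no transporter. Under this block Abcb1a, Abcb1b and Abcc3 were at 0.18, 0.16 and 0.30 in treated against untreated *db/db* mice.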
